A study of Mus musculus with 20 samples.

Results

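Celsr1, Celsr2 and Celsr3, the 3 members of the Celsr family of atypical cadherins, were followed through every cell class of the mouse basolateral amygdala (BLA). They were chosen by symbol from the 31053 genes of the deposited matrices, and all 3 were present. Single cells of the BLA were captured on the 10X Chromium platform, with 1 library from 1 mouse, in 10 libraries. The mice were male wild type C57BL/6 animals, 13 weeks old, in 4 groups. BCD/Sal mice (n = 2) drank the cyclodextrin vehicle BCD and received saline, and BCD/Ket mice (n = 3) drank BCD and received ketamine. CORT/Sal mice (n = 2) drank corticosterone, the main stress hormone of rodents, and received saline, and CORT/Ket mice (n = 3) drank corticosterone and received ketamine. Corticosterone was given at 35 µg/ml for 6 weeks, and ketamine at 10 mg/kg, 24 hours before tissue was taken. The tissue label is BLA, although the extraction text attached to the same libraries names the prefrontal cortex. The dissection also held some striatal projection neurons, as described further on.

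Celsr proteins are the vertebrate relatives of the fly protein Flamingo. They are adhesion G protein-coupled receptors whose long extracellular part carries cadherin repeats, EGF-like repeats and laminin G domains, and which bind to Celsr molecules on neighbouring cells. With Frizzled and Vangl proteins they form the core of planar cell polarity, the signalling that aligns cells within a sheet. Celsr1 is known for the alignment of epithelia and for closure of the neural tube. Celsr2 and Celsr3 are known for neuronal migration, for the positioning of ependymal cilia and, for Celsr3 with Frizzled 3, for the guidance of long axon tracts.

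By Ensembl identifier, Celsr1 (ENSMUSG00000016028) lies at chr15:85729188-85864207 on the minus strand of NCBIM37 (mm9), the build named in the labels. Its longest transcript has 35 exons, and no annotated gene overlaps it. Celsr2 (ENSMUSG00000068740) lies at chr3:108193769-108218470 on the minus strand, with 34 exons and no overlapping gene. Celsr3 (ENSMUSG00000023473) lies at chr9:108728651-108755294 on the plus strand, with 35 exons. A gene model named AC168054.1 overlaps Celsr3 on the same strand, so reads in the overlap cannot be assigned by strand. Slc26a6 begins 1073 bases downstream of Celsr3 on the same strand.

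The promoters of the members expressed in neurons are shown because their base composition differed and because Celsr3, the member nearly confined to neurons below, held a long motif match. The sequences are from RefSeq on GRCm38.p6, a later build than that of the gene coordinates above, and run 5′ to 3′ from 250 bases before to 50 bases after the start site. The Celsr2 window is chr3:108415530-108415829 on the minus strand, and the Celsr3 window is chr9:108825795-108826094 on the plus strand. Capitals in the Celsr3 sequence mark a match to an RE1-like motif.
Celsr2: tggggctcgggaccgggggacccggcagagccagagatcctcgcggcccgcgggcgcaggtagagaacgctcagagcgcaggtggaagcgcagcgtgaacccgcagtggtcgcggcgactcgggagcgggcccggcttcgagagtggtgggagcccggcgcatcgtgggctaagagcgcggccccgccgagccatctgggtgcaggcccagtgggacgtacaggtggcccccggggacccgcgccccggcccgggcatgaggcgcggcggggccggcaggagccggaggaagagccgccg
Celsr3: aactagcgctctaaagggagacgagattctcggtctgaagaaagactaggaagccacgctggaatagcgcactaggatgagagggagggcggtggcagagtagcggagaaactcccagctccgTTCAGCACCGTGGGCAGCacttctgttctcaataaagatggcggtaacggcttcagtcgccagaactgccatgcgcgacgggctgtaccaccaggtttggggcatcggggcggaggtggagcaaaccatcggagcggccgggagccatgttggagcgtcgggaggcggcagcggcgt
The table of promoters matched 2 of the 3 members, Celsr1 being the member without an entry. The Celsr2 window had a GC content of 76.3% and 40 CG dinucleotides, and the Celsr3 window 60.7% and 25. Over all 32851 promoters of the same length the median GC content was 52.7% and the median number of CG dinucleotides was 7.

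RE1 is the DNA element bound by the repressor REST, which holds neuronal genes down in other cells. It was searched on both strands as TTCAGCACC, 2 bases of any kind and GGNCAGC, after the Celsr3 promoter had been read. The match TTCAGCACCGTGGGCAGC covered bases 124 to 141 of the Celsr3 window and ended 109 bases before the start site. It occurred in 5 of the 32851 promoters (0.0152%), and its first part alone, TTCAGCACC, in 122 (0.371%), with neither in the Celsr2 window. The full glucocorticoid receptor motif, AGAACA, 3 bases of any kind and TGTTCT, was in 3 promoters (0.00913%) and in neither Celsr window. Its first part, AGAACA, occurred once in the Celsr3 window and not in the Celsr2 window, against 19.0% of all promoters with at least 1. The Sp1 box GGGCGG occurred 2 times in the Celsr3 window and not in the Celsr2 window, against 35.7% of promoters, and TATAAA was in neither, against 13.6%. The RE1 search followed the reading of the Celsr3 promoter, so its counts do not measure how unusual the Celsr3 match is. All these matches are descriptions of letters and show no binding.

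Of 28722 barcodes, 8305 passed the filters on mitochondrial share and on genes per barcode. These held 129 molecules (unique molecular identifiers, UMIs) of Celsr1, 1799 of Celsr2 and 906 of Celsr3. Total UMIs of kept barcodes ranged from 287013 to 3680877 per library. The library of CORT/Sal mouse 9970 stood apart, with 97.1% of its barcodes kept and a median mitochondrial share of 3.22%, against 16.8% to 31.0% and 33.2% to 57.9% in the other 9. Cluster 0, of 2356 barcodes led by Bc1, Gng13, Ddn and Hba-a1, came to 99.5% from that library. It had 5 excitatory markers past the fold that names a cluster, against 4 in cluster 4 and 12 in cluster 9 of the excitatory class, but was left unnamed because over 90% of it came from 1 library, so that mouse 9970 entered the excitatory class with 10 cells. Counted as excitatory neurons, it gave mean levels of 239 CPM for Celsr2 and 117 CPM for Celsr3 in that class. Also unnamed was a cluster of 70 barcodes led by AY036118 and Lars2. Of 8280 distinct kept barcodes, 21 occurred in more than 1 library. The remaining cells fell into 12 classes, clustered without the Celsr and planar cell polarity genes and named from their markers. In 11 classes every marker of the class's own list had at least 1 UMI, and in committed oligodendrocyte precursors 9 of 10. The classes were named from the same lists, and excitatory neurons of BCD/Sal mice also held UMIs of all 12 microglial markers. Detection is therefore not read as evidence for the names. Levels are given as CPM, the counts of a gene per 1000000 UMIs of a class in a library. A library entered the mean of a class with 10 or more of its cells. Levels are not compared between genes.

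Across classes each member had its own range. Celsr1 was found in astrocytes and in the class named ependymal cells, which had as many choroid plexus markers. Celsr2 was found in neurons, the oligodendrocyte lineage, astrocytes and ependymal cells. Celsr3 was found in neurons, with 11 UMIs in oligodendrocyte precursor cells, which also held markers of excitatory neurons. Microglia and the vascular classes carried few or no UMIs of any member.

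**Figure D1:**
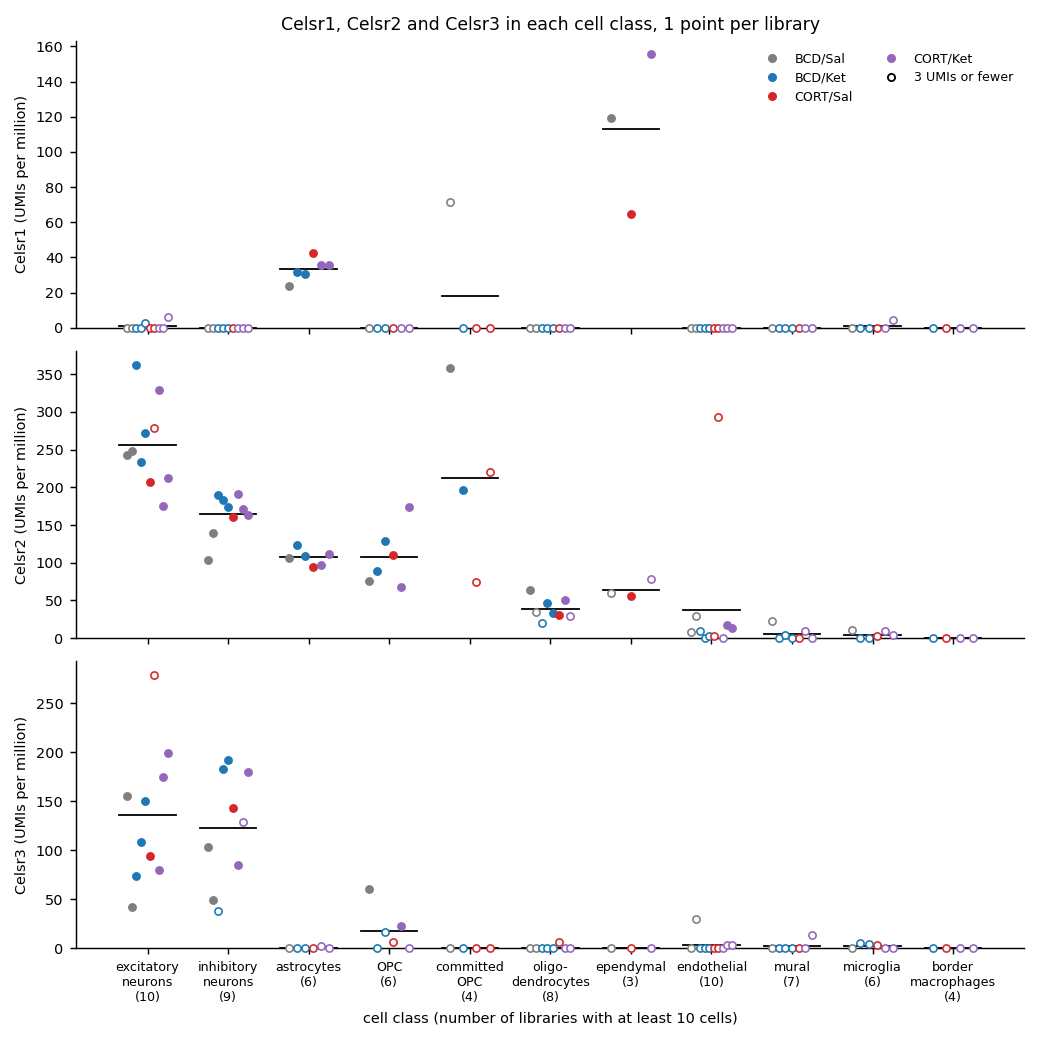
Level of Celsr1, Celsr2 and Celsr3 (CPM) by cell class, with 1 point per library in the colour of its group, open where it rests on at most 3 UMIs, and a bar at the mean. Celsr1 stands in astrocytes at 33.3 CPM and ependymal cells at 113 CPM, Celsr2 extends from excitatory neurons at 256 CPM to oligodendrocytes at 38.3 CPM, and Celsr3 stands in excitatory and inhibitory neurons at 136 and 123 CPM.

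Celsr1, the member best known from epithelia, had its highest level in the class named ependymal cells. There it was 119 CPM in BCD/Sal mouse 9901, 64.8 CPM in CORT/Sal mouse 9969 and 155 CPM in CORT/Ket mouse 9971, a mean of 113 ± 45.6 CPM (SD, n = 3) from 19 UMIs. Summed over all 68 cells of the class, libraries with fewer than 10 of them included, the level was 78.5 CPM. The class was led by Ttr and also carried markers of the choroid plexus, so ependymal and choroid plexus cells were not separated. In astrocytes, Celsr1 was 23.9 CPM in BCD/Sal mouse 9901, 31.7 and 30.8 CPM in BCD/Ket mice 9949 and 9986, 42.2 CPM in CORT/Sal mouse 9969, and 35.8 and 35.4 CPM in CORT/Ket mice 9968 and 9971. The mean was 33.3 ± 6.13 CPM (SD, n = 6), and all 6 libraries held the gene. The level depended on the mitochondrial filter and was 54.0 CPM when barcodes with a share of up to 25% were kept.

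Outside these classes Celsr1 was nearly undetected. No UMI was found in endothelial cells, which allows up to 1.26 CPM, in oligodendrocytes (up to 2.94 CPM), inhibitory neurons (up to 3.77 CPM), pericytes and mural cells (up to 4.21 CPM) or oligodendrocyte precursor cells (up to 4.36 CPM). These limits are 3 counts over the summed UMIs of a class and cover counting error only. The summed astrocyte level of 34.2 CPM was 27.1-fold the limit of endothelial cells and 11.6-fold that of oligodendrocytes. It was 9.09-fold the limit of inhibitory neurons, 8.14-fold that of mural cells and 7.85-fold that of oligodendrocyte precursor cells. These folds leave out the counting error of the astrocyte level, whose 95% Poisson interval was 27.5 to 42.2 CPM. Excitatory neurons held 4 UMIs, and microglia, committed oligodendrocyte precursors and border macrophages 1 each. Fibroblasts, of 27 cells, held none, at a limit of 51.4 CPM that does not exclude the astrocyte level.

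In astrocytes 82 of 1288 cells (6.37%, 95% Wilson interval 5.16% to 7.83%) had a Celsr1 UMI, against 1 of 862 microglia (0.116%), a class in which the gene should be absent. The interval pools the cells of all libraries and leaves out the spread between mice. Median depths were alike, at 1619 UMIs per astrocyte and 1587 per microglial cell. After every cell was thinned to 1000 UMIs, leaving out 329 astrocytes and 153 microglia that were shallower, the shares were 3.19% and 0.0872%. The ependymal share was 15 of 68 cells (22.1%), or 7.46% after thinning.

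Celsr2 had its highest level in excitatory neurons, at 256 ± 56.9 CPM (SD, n = 10, 689 UMIs), with a lowest value of 175, a median of 246 and a highest value of 363 CPM. The mean was 169 CPM when only barcodes with a mitochondrial share of up to 5% were kept. Committed oligodendrocyte precursors, the stage between precursor and myelinating cell, had 358 CPM in BCD/Sal mouse 9901, 197 CPM in BCD/Ket mouse 9986, and 73.9 and 221 CPM in CORT/Sal mice 9969 and 9970. Their mean was 212 ± 117 CPM (n = 4), from 17 UMIs, and their values overlapped those of both neuron classes. Summed over all 115 cells, libraries with fewer than 10 of them included, the level was 162 CPM from 28 UMIs. Beside 7 markers of its own, this cluster had 4 of neuroblasts and 2 each of excitatory neurons, oligodendrocyte precursor cells and oligodendrocytes past the naming fold. Inhibitory neurons had 164 ± 27.7 CPM (n = 9), with a lowest value of 104, a median of 171 and a highest value of 192 CPM.

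Celsr2 continued into the glia. Oligodendrocyte precursor cells had 107 ± 39.3 CPM (n = 6), with 75.7 CPM in BCD/Sal mouse 9901, 89.1 and 129 CPM in BCD/Ket mice, 110 CPM in CORT/Sal mouse 9969, and 67.6 and 173 CPM in CORT/Ket mice. Astrocytes had 107 ± 10.5 CPM (n = 6, range 94.5 to 123), with less spread between libraries than the precursor cells. A library held 31 to 70 Celsr2 UMIs in astrocytes and 5 to 16 in precursor cells. The part of counting error in these spreads was not tested. Ependymal cells had 64.3 ± 11.8 CPM (n = 3). Oligodendrocytes had 38.3 ± 13.8 CPM (n = 8, range 20.1 to 63.1).

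The vascular and immune classes were at the low end for Celsr2. Microglia had 4.65 ± 4.73 CPM from 7 UMIs and mural cells 5.23 CPM from 4 UMIs. Endothelial cells had a median of 8.41 CPM (n = 10) from 17 UMIs. Their mean of 37.7 ± 90.2 CPM rested on CORT/Sal mouse 9970, where 1 UMI gave 293 CPM. The summed endothelial level was 7.17 CPM, and border macrophages and fibroblasts held no Celsr2 UMI.

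Shares of cells followed the same order among the larger classes, apart from astrocytes and oligodendrocyte precursor cells. The order of these 2 was not resolved and turned with thinning. A Celsr2 UMI was found in 36.6% of excitatory neurons, 31.6% of inhibitory neurons, 18.2% of astrocytes, 15.9% of oligodendrocyte precursor cells and 8.44% of oligodendrocytes. Thinned to 1000 UMIs these shares were 21.5%, 15.0%, 9.78%, 9.84% and 4.28%. Microglia gave 0.812% unthinned and 0.501% thinned. The endothelial (1.37%, thinned 0.746%) and mural (1.48%, thinned 0.759%) shares were close to that background and are not read as expression.

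Celsr3, the member known for axon tracts, was found mainly in neurons. Excitatory neurons had 136 ± 70.5 CPM (n = 10, 375 UMIs), with a lowest value of 42.0, a median of 129 and a highest value of 279 CPM. Inhibitory neurons had 123 ± 57.6 CPM (n = 9, 73 UMIs), with a lowest value of 38.0, a median of 128 and a highest value of 192 CPM. The spread over libraries was wide in both classes, and their values overlapped.

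Oligodendrocyte precursor cells, which form synapses with neurons, had 17.9 ± 22.8 CPM of Celsr3 (n = 6) from 11 UMIs. Of the 6 libraries 4 held any, with 60.5 CPM in BCD/Sal mouse 9901. In these cells the 16 excitatory markers summed to 220 to 681 CPM over libraries, with 681 CPM in mouse 9901. Their part in the Celsr3 level was not tested. Astrocytes held 1 UMI, a summed level of 0.389 CPM. Microglia held 4 UMIs, endothelial cells 3, committed oligodendrocyte precursors 2, and mural cells and oligodendrocytes 1 each. Ependymal cells held none, at a limit of 11.2 CPM. A Celsr3 UMI was found in 29.1% of excitatory neurons, 21.3% of inhibitory neurons and 2.27% of oligodendrocyte precursor cells, against 0.464% of microglia and 0.0776% of astrocytes. Thinned to 1000 UMIs the shares were 14.4%, 10.1%, 2.12%, 0.248% and 0.0516%.

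Levels were then compared between classes within libraries by a two-sided exact sign-flip permutation test, for the 8 classes present in at least 6 libraries, which gave 28 pairs for each of 3 genes. With 6 libraries the smallest p this test can give is 0.03125. Of the 84 comparisons 41 had an unadjusted p under 0.05, and with Benjamini-Hochberg adjustment each of these had an adjusted p of 0.0640, so that 0 passed. Leaving out mouse 9901, 9949, 9986, 9969, 9968 or 9971 left 30 comparisons, of which 10 passed and 15 had an unadjusted p under 0.05. Celsr1 was higher in astrocytes than in each of the 7 other classes in 6 of 6 libraries (exact p = 0.03125 each). Celsr2 was higher in excitatory than in inhibitory neurons in 9 of 9 libraries (exact p = 0.00391), by 89.7 ± 55.4 CPM (SD of the difference). It was higher in excitatory neurons than in oligodendrocytes in 8 of 8 libraries (exact p = 0.00781) and than in astrocytes and oligodendrocyte precursor cells in 6 of 6 (exact p = 0.03125 each). Celsr3 was higher in excitatory neurons than in endothelial cells in 10 of 10 libraries (exact p = 0.00195) and higher in both neuron classes than in each of the 6 other classes in every shared library.

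A test over all genes with mouse as a block was added after the levels had been seen (edgeR quasi-likelihood, 7 pairs of classes). Its folds come from a fit with TMM factors and differ in size from those of mean CPM. In shared libraries mean Celsr2 was 254 and 164 CPM in excitatory and inhibitory neurons. It was 224 and 107 CPM in excitatory neurons and astrocytes, and 107 and 42.0 CPM in astrocytes and oligodendrocytes. Celsr2 was 1.90-fold higher in excitatory than in inhibitory neurons (log2 0.93 ± 0.19 SE, adjusted p = 5.73e-05), a comparison in which 15.3% of genes passed. It was 1.66-fold higher in excitatory neurons than in astrocytes (log2 0.73 ± 0.17, adjusted p = 7.23e-05), where 67.9% of genes passed, and 2.33-fold higher than in oligodendrocyte precursor cells (log2 1.22 ± 0.22, adjusted p = 9.90e-07), where 51.9% passed. Within glia, Celsr2 was 3.04-fold higher in astrocytes than in oligodendrocytes (log2 1.60 ± 0.26, adjusted p = 5.13e-08), where 53.9% passed. It was 2.17-fold higher in oligodendrocyte precursor cells than in oligodendrocytes (log2 1.12 ± 0.32, adjusted p = 0.00181), where 52.7% passed.

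The middle of the Celsr2 order was not resolved. Astrocytes and oligodendrocyte precursor cells had the same mean CPM and an edgeR log2 difference of 0.49 ± 0.23 (adjusted p = 0.0838), where 42.5% of genes passed. Inhibitory neurons had a higher mean CPM than astrocytes, and were higher in 5 of 6 libraries (exact p = 0.0625), but the edgeR log2 difference was -0.19 ± 0.23 (adjusted p = 0.484), where 59.1% passed, so the mean CPM and the fit differed in sign. The cause was not tested. For Celsr3, excitatory against inhibitory neurons gave log2 0.26 ± 0.24 in edgeR (adjusted p = 0.538), and excitatory neurons were higher in 4 of 9 libraries (exact p = 0.855). Celsr3 was 8.89-fold higher in excitatory neurons than in oligodendrocyte precursor cells (log2 3.15 ± 0.37, adjusted p = 4.89e-13).

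Excitatory neurons formed 2 clusters, and Celsr2 and Celsr3 had opposite orders between them. Cluster 4 held 796 cells with a median of 1244 UMIs and was led by Cpne7, Miat and Mirg. Cluster 9 held 231 cells with a median of 4287 UMIs and was led by Chgb, Nptxr, Ttc9b and Olfm1. Celsr3 was 196 ± 84.8 CPM in cluster 4 (n = 8) and 64.8 ± 26.3 CPM in cluster 9 (n = 7). Celsr2 was 228 ± 40.9 CPM in cluster 4 and 290 ± 71.1 CPM in cluster 9. The thinned shares kept these orders, at 17.3% and 8.30% for Celsr3 and 20.3% and 24.1% for Celsr2.

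In the 5 libraries with at least 10 cells of both clusters, Celsr3 was 186 ± 84.6 CPM in cluster 4 and 72.0 ± 27.9 CPM in cluster 9 and was higher in cluster 4 in 4 of 5 (exact sign-flip p = 0.125). Celsr2 was higher in cluster 4 in 1 of 5 (233.6 ± 32.0 against 283 ± 75.9 CPM, exact p = 0.188). The smallest p that 5 libraries allow is 0.0625. The share of excitatory neurons in cluster 9 ranged from 0% to 95.9% over libraries and was over 50% in mice 9947, 9967 and 9946, at 95.9%, 80.8% and 61.9%. The same 3 mice had the lowest Celsr3 levels of excitatory neurons, at 42.0, 80.4 and 74.0 CPM. They also had the lowest Celsr3 levels of inhibitory neurons, a class without cluster 9 cells, at 49.8, 85.2 and 38.0 CPM. That class differed in make-up too. Of its 72, 20 and 38 cells in these 3 mice, 37, 4 and 4 were striatal projection neurons, described below. Mice 9901 and 9970 held 1 such cell each. The libraries of mice 9947, 9967 and 9946 held 3, 4 and 7 astrocytes, against 179 to 254 in the 6 libraries with at least 10. The part of cluster or subgroup make-up, or of the library, in these levels was not tested.

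**Figure D2:**
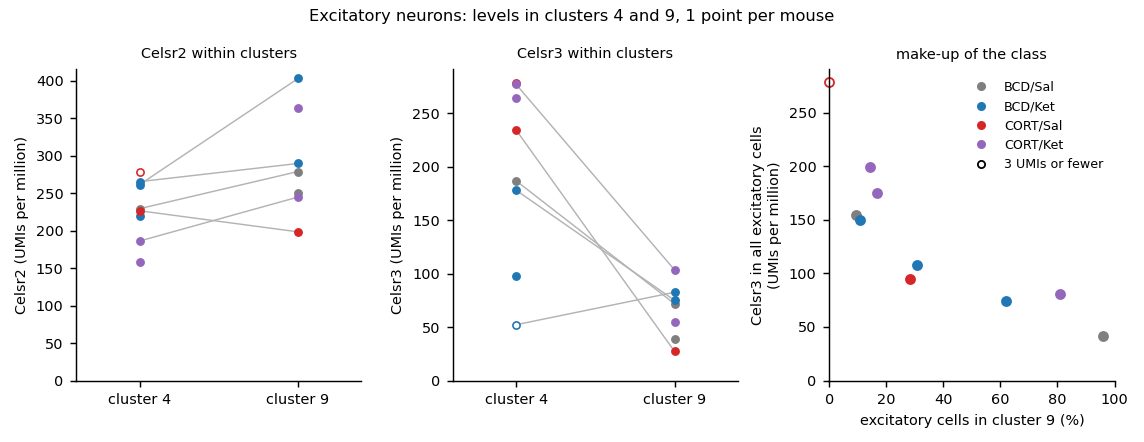
Celsr2 and Celsr3 (CPM) in excitatory clusters 4 and 9, with 1 point per library and lines joining the values of a library, and the Celsr3 level of excitatory neurons against the percent of them in cluster 9. Celsr3 is higher in cluster 4 in 4 of the 5 shared libraries, and the 3 libraries with more than 50% in cluster 9 lie between 42.0 and 80.4 CPM.

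Inhibitory neurons were split further by marker. Interneurons (121 cells, led by Sst or Vip groups) had 130 ± 86.7 CPM of Celsr2 and 116 ± 103 CPM of Celsr3 (n = 5). Striatal projection neurons, marked by Ppp1r1b and Penk (47 cells), reached 10 cells in 1 library, that of BCD/Sal mouse 9947. There they had 148 CPM of Celsr2 and 43.1 CPM of Celsr3. The remaining 133 cells had 174 ± 80.9 and 113 ± 72.7 CPM (n = 6). They included 42 cells led by Slc17a7, a gene of excitatory neurons. Over the whole inhibitory class the 16 excitatory markers summed to 1620 to 1844 CPM in BCD/Sal, 1607 to 1886 CPM in BCD/Ket, 1575 CPM in CORT/Sal and 1225 to 2826 CPM in CORT/Ket mice, with Neurod6 at 0 in all groups but CORT/Ket, and their part in the levels was not tested. With these numbers of cells the subgroups' spreads overlapped.

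Members were also counted in the same cells. Of 1027 excitatory neurons 119 had UMIs of both Celsr2 and Celsr3, where independent detection would give 109. Of 301 inhibitory neurons 19 had both, against 20.2. Of 1288 astrocytes 19 had Celsr1 and Celsr2, against 15.0, and of 68 ependymal cells 5 had both, against 2.21. Cells differ in depth, which raises joint detection, so these counts are descriptions.

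The class profile of each member was set beside those of 8620 genes by Pearson's r of log2(mean CPM + 10) over the 8 classes. Closest to Celsr1 were Bmpr1b (r = 0.998), Gm973 (0.997), Ppp1r3g (0.996), Lgi4 (0.996) and Etnppl (0.995), each highest in astrocytes. Among the closest to Celsr3 were Trank1 (0.998), Ryr1 (0.994), Svop (0.993) and Nap1l2 (0.993), each highest in 1 of the 2 neuron classes. Svop encodes a synaptic vesicle protein. Celsr2 had lower r values, led by Arfip2 (0.976), Zdhhc21 (0.961), Scaper (0.960), Mrpl15 (0.956) and Atg9a (0.956). Their highest classes were excitatory neurons, inhibitory neurons and oligodendrocyte precursor cells. The Celsr2 profile used the endothelial mean of 37.7 CPM, which rested on 1 UMI of mouse 9970, against a median of 8.41 CPM. How far this value set the Celsr2 list and its lower r was not tested. The points share libraries and depth, and no p is given.

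The design asks whether corticosterone, ketamine or both changed the members within a class. No change was found in any class with enough mice for a test. For the members, contrasts with CORT/Sal could be tested in excitatory neurons only. Inhibitory neurons, astrocytes and oligodendrocyte precursor cells had 1 CORT/Sal library with at least 10 cells. In endothelial cells no member passed the filter on low counts. Corticosterone alone, and ketamine after corticosterone, were thus not tested for the members in the other classes. In excitatory neurons Celsr2 was 243 and 249 CPM in BCD/Sal mice, 363, 234 and 272 CPM in BCD/Ket mice, 207 and 279 CPM in CORT/Sal mice, and 330, 175 and 212 CPM in CORT/Ket mice. The groups overlapped, and the value of 279 CPM came from 1 UMI in 10 cells of mouse 9970. Celsr3 was 155 and 42.0 CPM in BCD/Sal, 74.0, 108 and 150 CPM in BCD/Ket, 94.5 and 279 CPM in CORT/Sal, and 80.4, 175 and 200 CPM in CORT/Ket mice. Again the groups overlapped, and 279 CPM was the same mouse with 1 UMI.

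**Figure D3:**
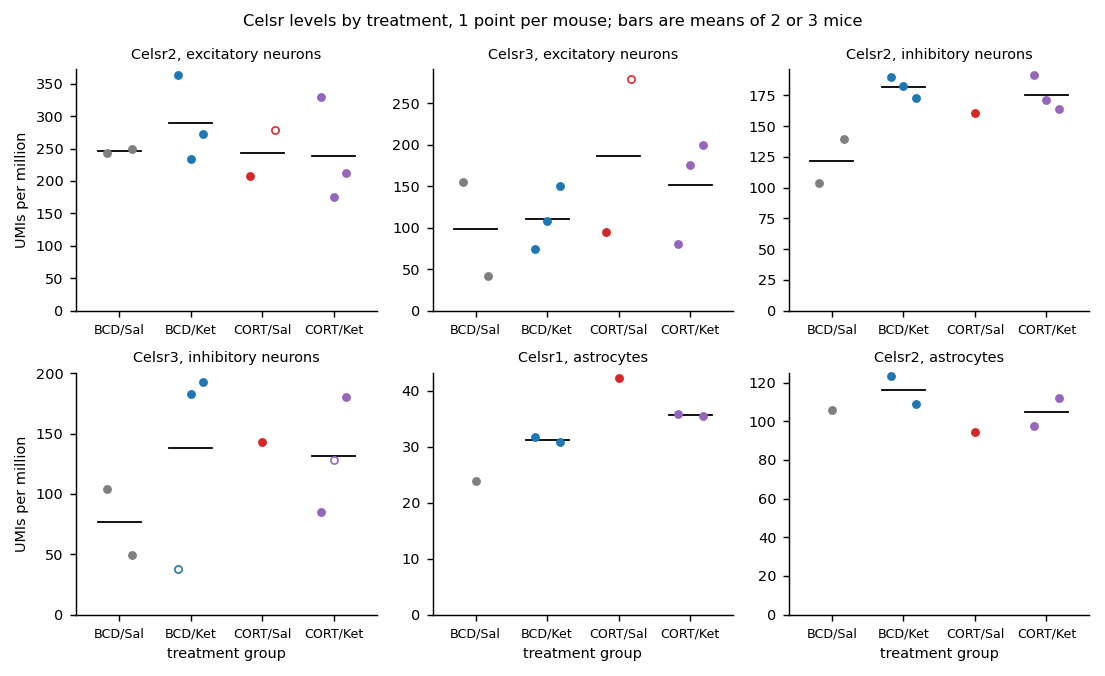
Levels of the members (CPM) by treatment group in excitatory neurons, inhibitory neurons and astrocytes, with 1 point per library, open where it rests on at most 3 UMIs, and a bar at the mean of groups of 2 or 3 mice. The groups overlap in excitatory neurons. Celsr2 in inhibitory neurons lies at 104 and 140 CPM in BCD/Sal mice and between 173 and 190 CPM in BCD/Ket mice, a difference that did not pass the test.

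In inhibitory neurons Celsr2 was 104 and 140 CPM in BCD/Sal mice, 190, 183 and 173 CPM in BCD/Ket mice, 161 CPM in the CORT/Sal mouse 9969, and 192, 171 and 164 CPM in CORT/Ket mice. The BCD/Ket values all lay above the BCD/Sal values, which rested on 8 and 45 UMIs. The difference did not pass the test below, in a comparison where 0% of genes passed. How many of all genes separate these groups in the same way was not counted, so the order is not read as a difference. Celsr3 there was 104 and 49.8 CPM, then 38.0, 183 and 192 CPM, then 143 CPM, and 85.2, 128 and 180 CPM in the same order of groups, with overlap. In oligodendrocytes Celsr2 was 63.1 and 34.0 CPM in BCD/Sal, 20.1, 46.3 and 32.9 CPM in BCD/Ket, 31.1 CPM in CORT/Sal, and 50.1 and 28.8 CPM in CORT/Ket mice, also with overlap. In astrocytes Celsr2 was 106 CPM in BCD/Sal, 123 and 109 CPM in BCD/Ket, 94.5 CPM in CORT/Sal, and 97.4 and 112 CPM in CORT/Ket mice.

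The edgeR quasi-likelihood test on counts summed per mouse and class allowed 17 tests of a member. In these 0 passed an adjusted p of 0.05 over all genes of the class, and 0 had an unadjusted p under 0.05. The smallest unadjusted p was 0.250 and the smallest adjusted p 0.999. DESeq2 called 0 members too. The background was as low: 0% of the genes tested passed in each of 5 comparisons of excitatory neurons (6471 genes), 2 of inhibitory neurons (2845 genes) and 1 of astrocytes (8311 genes) and of oligodendrocyte precursor cells (4055 genes). In excitatory neurons 63 to 161 genes had an unadjusted p under 0.05, in inhibitory neurons 31 and 19, in astrocytes 253 and in precursor cells 29, and DESeq2 called 0 genes in all these comparisons.

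For Celsr2 in excitatory neurons the log2 difference of CORT/Sal over BCD/Sal was -0.49 ± 0.65 SE (95% interval -1.77 to 0.79). CORT/Ket over CORT/Sal gave 0.42 ± 0.62 (-0.80 to 1.65), and BCD/Ket over BCD/Sal gave 0.18 ± 0.53 (-0.87 to 1.23). CORT/Ket over BCD/Ket gave -0.25 ± 0.49 (-1.22 to 0.72). The ketamine effect with corticosterone minus that without it was 0.24 ± 0.81 (-1.36 to 1.84). The group means were nearly level for CORT/Sal over BCD/Sal, at 243 ± 50.4 and 246 ± 4.15 CPM, and ran the other way for CORT/Ket (239 ± 80.7 CPM) over CORT/Sal. Without CORT/Sal mouse 9969, which leaves mouse 9970 with 1 UMI as the group, these log2 differences were -1.72 and 1.64. The second was 0.09 without CORT/Ket mouse 9967 and -0.16 within cluster 4. By CPM mouse 9970, at 279, lay above both BCD/Sal mice, at 243 and 249, and above the CORT/Ket mean. There the fit and CPM differed in sign. The fit uses TMM factors and CPM does not, and the cause was not tested. Each interval held 0 together with changes of more than 1.5-fold in both directions, so only larger changes than these bounds fall outside the data.

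For Celsr3 in excitatory neurons the corresponding log2 values were -0.20 ± 0.66 (-1.51 to 1.11) for CORT/Sal over BCD/Sal and 0.75 ± 0.65 (-0.53 to 2.03) for CORT/Ket over CORT/Sal. They were 0.11 ± 0.53 (-0.93 to 1.15) for BCD/Ket over BCD/Sal, 0.44 ± 0.49 (-0.54 to 1.42) for CORT/Ket over BCD/Ket and 0.64 ± 0.83 (-1.0 to 2.28) for the difference of the ketamine effects. The group means went the other way for CORT/Sal over BCD/Sal, at 187 ± 130 and 98.5 ± 79.8 CPM, and for CORT/Ket (152 ± 62.9 CPM) over CORT/Sal. The first of these log2 values was 1.05 without BCD/Sal mouse 9901 and -0.79 without BCD/Sal mouse 9947. All genes together shifted by a median log2 of -0.19 in CORT/Sal over BCD/Sal and 0.17 in CORT/Ket over CORT/Sal.

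**Figure D4:**
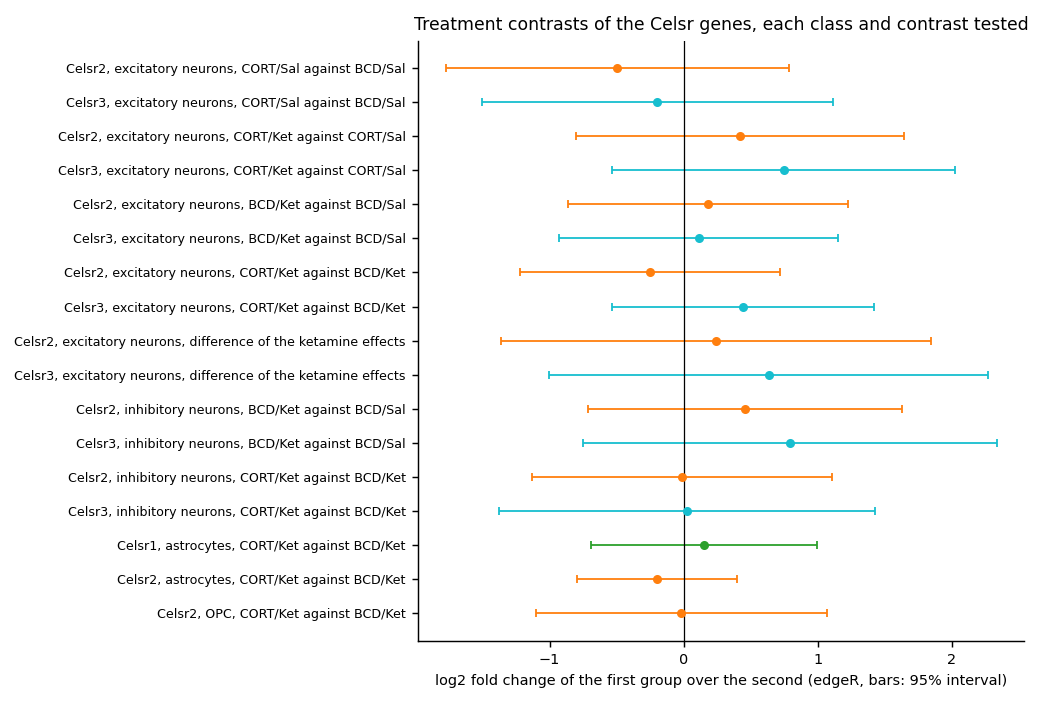
The 17 log2 differences of the members between treatment groups by class, with the 95% interval of the edgeR fit. Every interval holds 0, and the narrowest, for Celsr2 in astrocytes, runs from -0.79 to 0.40.

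In inhibitory neurons BCD/Ket over BCD/Sal gave a log2 difference of 0.46 ± 0.57 (-0.71 to 1.63) for Celsr2 and 0.79 ± 0.75 (-0.75 to 2.34) for Celsr3. CORT/Ket over BCD/Ket gave -0.01 ± 0.54 (-1.13 to 1.10) for Celsr2, a value that turned to 0.0187 with RLE factors, and 0.03 ± 0.68 (-1.38 to 1.43) for Celsr3. In astrocytes CORT/Ket over BCD/Ket gave 0.15 ± 0.42 (-0.69 to 1.00) for Celsr1 and -0.20 ± 0.30 (-0.79 to 0.40) for Celsr2. In oligodendrocyte precursor cells Celsr2 gave -0.02 ± 0.55 (-1.10 to 1.07), a value that turned to 0.10 with DESeq2. No member passed the filter on low counts in endothelial cells, oligodendrocytes, microglia or mural cells. There the genes called were 6 (0.0943%) for CORT/Sal over BCD/Sal and 5 (0.0786%) for CORT/Ket over BCD/Ket in endothelial cells and 1 (0.0286%) in each comparison of oligodendrocytes.

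Markers of other cells were present in the excitatory class and varied between its libraries. The 12 astrocyte markers summed to 501 to 1198 CPM in BCD/Sal, 526 to 1386 CPM in BCD/Ket, 651 to 1394 CPM in CORT/Sal and 627 to 850 CPM in CORT/Ket mice, with Gfap at 0 in BCD/Sal and Aqp4 and Gjb6 at 0 in CORT/Sal. The 12 microglial markers summed to 9.69 to 58.7, 7.40 to 27.0, 0 to 31.5 and 0 to 250.1 CPM in the same order. The ranges of these lists overlapped between groups. The 12 endothelial markers summed to 58.2 to 127, 170 to 522, 368 to 557 and 0 to 375 CPM in the same order. Their BCD/Sal values lay below those of BCD/Ket and CORT/Sal mice. The 19 inhibitory markers summed to 571.6 to 571.9, 259 to 549, 436 to 1115 and 306 to 563 CPM. Their BCD/Sal values lay above those of BCD/Ket and CORT/Ket mice. The oligodendrocyte markers overlapped between groups. The part of all these markers in the member levels was not tested. In astrocytes the 16 excitatory markers summed to 99.4 to 450.1 CPM, and Celsr3, the member found in neurons, stood there at 1 UMI.

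The other genes of planar cell polarity were taken from a list of 30, all of them in the files. In 18 comparisons of a class and a contrast, with 6 to 20 list genes tested in each and 244 tests in all, 0 passed the edgeR threshold and 5 had an unadjusted p under 0.05, of which 4 were contrasts of Fzd3 in endothelial cells that share groups. Of 17 list genes tested in excitatory neurons, 4 were higher in CORT/Sal than BCD/Sal (median log2 -0.36, all genes -0.19) and 12 were higher in CORT/Ket than CORT/Sal (median 0.35, all genes 0.17). Both contrasts share the CORT/Sal group, in which mouse 9970 had 10 cells and 3588 UMIs, so their opposite signs are not independent. The share of all genes that were higher was not counted, and no change of the list is read from these counts. In BCD/Ket against BCD/Sal 8 were higher (median -0.05) and in CORT/Ket against BCD/Ket 5 (median -0.10), with medians of all genes at -0.01 and 0.01.

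The list genes had their highest levels in different classes. Of the 30, 8 had their highest level in inhibitory neurons, 6 in endothelial cells, 5 in oligodendrocyte precursor cells, 3 each in astrocytes and excitatory neurons, 2 each in oligodendrocytes and mural cells, and 1 in microglia. Some places were near ties, such as Dvl1 at 133 CPM in inhibitory and 130 CPM in excitatory neurons. Others had an SD above the mean, such as Prickle3 (59.4 ± 94.7 CPM) and Fat4 (73.4 ± 78.3 CPM) in endothelial cells. These means weigh libraries alike, and mouse 9970 entered the endothelial class with 11 cells and 3411 UMIs. The highest classes of all genes were not counted, and no test between classes is given for the list. Among the receptors, Fzd3, the partner of Celsr3 in axon guidance, was highest in excitatory neurons at 158 ± 71.7 CPM (n = 10). It was close to that in inhibitory neurons (148 ± 75.7 CPM) and was 120 ± 40.3 CPM in oligodendrocyte precursor cells. Fzd6, a relative of Fzd3, was highest in endothelial cells at 278 ± 98.8 CPM, and the Wnt receptor Ryk in mural cells at 245 ± 145 CPM. Of the core proteins that act with Celsr, Vangl2 was highest in oligodendrocyte precursor cells at 123 ± 35.0 CPM and Prickle1 in endothelial cells at 118 ± 45.0 CPM. Prickle2 was highest in excitatory neurons at 103 ± 45.2 CPM, with 85.6 ± 36.7 CPM in inhibitory neurons. Among ligands and Fat-Dachsous genes, Wnt7b (99.5 ± 24.8 CPM) and Fjx1 (773 ± 118 CPM) were highest in astrocytes and the atypical cadherin Dchs1 in oligodendrocyte precursor cells (62.6 ± 10.2 CPM). The effector Daam1, a formin that builds actin filaments, was highest in oligodendrocytes at 370 ± 104 CPM.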

How the data were processed

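BLA tissue of 10 mice was dissociated and profiled on the 10X Chromium platform. The deposited matrices hold raw UMI counts, which the authors made with Cell Ranger (3.0.2 in the file headers); the submitters' notes also name Seurat 3.1.1 and mm9. The annotation release is not given in the sources used here. Barcodes over 12.5% mitochondrial UMIs or with fewer than 200 genes were removed. The others were clustered with scanpy 1.11.5 (2000 variable genes, 30 principal components, Leiden resolution 0.8) and named by markers at least 3-fold higher than elsewhere; the naming rule was set after clusters had been seen. Doublets were not removed in the reported values; removal of the highest Scrublet scores was an alternative. Counts were summed per mouse and class and tested with edgeR 4.0.16 (TMM, filterByExpr, quasi-likelihood, 1 fit of 4 groups), for classes with at least 10 cells in at least 2 libraries of both groups, at a Benjamini-Hochberg adjusted p of 0.05. DESeq2 1.42.0 was an alternative. The fits were tested on simulated data. Named genes were the members, the planar cell polarity list, markers, and the 5 genes most like each member among those of at least 50 CPM in a class; some of these are not reported here; genes leading a cluster were named after their values were seen. The members and lists were chosen with earlier results of these data known. Prefrontal cortex libraries were not analysed here.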

Additional observations from a re-analysis of the deposited data

Results flagged for a closer look

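Of 21 sets of 4 to 10 libraries tested for a value far from the others, 10 had one, and all 10 rested on at most 4 UMIs, where 1 molecule makes most of the range. The rate of about 1 in 20 by chance holds for normally distributed values and not for counts this low. A set in which 1 library alone holds the gene is always flagged, so the 10 are not read as an excess. For Celsr1 these were 71.6 CPM in committed oligodendrocyte precursors of BCD/Sal mouse 9901, 6.30 CPM in excitatory neurons of CORT/Ket mouse 9971 and 4.32 CPM in microglia of the same mouse. For Celsr2 they were 293 CPM in endothelial cells of CORT/Sal mouse 9970 and 22.6 CPM in mural cells of BCD/Sal mouse 9901. For Celsr3 they were 1.99 CPM in astrocytes of CORT/Ket mouse 9968, 29.6 CPM in endothelial cells of BCD/Sal mouse 9947, 60.5 CPM in oligodendrocyte precursor cells of BCD/Sal mouse 9901, 6.22 CPM in oligodendrocytes of CORT/Sal mouse 9969 and 14.0 CPM in mural cells of CORT/Ket mouse 9971.

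Barcodes outside the comparisons also held the members. The barcodes removed by the filters carried 93 UMIs of Celsr1, 2351 of Celsr2 and 613 of Celsr3, which were 41.9%, 56.7% and 40.4% of all their UMIs. Per 1000000 non-mitochondrial UMIs, Celsr2 was 150 in removed and 113 in kept barcodes and was higher in the kept ones in 1 of 10 libraries. Celsr1 was 5.94 in removed and 8.07 in kept barcodes, and Celsr3 39.1 and 56.7, with higher values in kept barcodes in 6 and 5 of 10 libraries.

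The unnamed cluster 0, nearly all from CORT/Sal mouse 9970, carried 13 UMIs of Celsr1, 526 of Celsr2 and 435 of Celsr3, or 3.55, 144 and 119 CPM.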

How the results depend on the processing

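No paired analysis was possible because the 4 groups share no mouse, and the mouse numbers recur only in prefrontal cortex libraries not analysed here. None of the 17 differences between treatments passed the threshold under any of 303 alternatives (smallest adjusted p 0.467, edgeR or DESeq2), and 276 kept their sign. Of the 27 that reversed, 16 left out 1 mouse. Leaving out 1 mouse gave, in excitatory neurons, Celsr2 log2 differences of -0.0242 to 0.31 for BCD/Ket over BCD/Sal, -1.72 to -0.31 for CORT/Sal over BCD/Sal, 0.09 to 1.64 for CORT/Ket over CORT/Sal and -0.0842 to 1.45 for the difference of the ketamine effects. For Celsr3 it gave -0.46 to 1.37, -0.79 to 1.05, 0.38 to 1.01 and -0.62 to 1.21. For CORT/Ket over BCD/Ket it gave -0.0616 to 0.0349 (Celsr2) and -0.50 to 0.51 (Celsr3) in inhibitory neurons and -0.73 to 0.65 for Celsr2 in oligodendrocyte precursor cells. Added after seeing the data, counting cluster 0 as excitatory neurons turned Celsr3 in CORT/Sal over BCD/Sal to 0.11, and cluster 4 alone turned Celsr2 in CORT/Ket over CORT/Sal to -0.16. The near-zero Celsr2 value for CORT/Ket over BCD/Ket in inhibitory neurons turned to 0.0187 with RLE factors, 0.0161 with DESeq2, 0.0020 with no filter on low counts, 0.13 with at least 500 genes per barcode and 0.0452 at resolution 1.2. In precursor cells it turned to 0.10 with DESeq2, 0.22 with a mitochondrial limit of 25%, 0.0281 with 500 genes and 0.0266 at resolution 0.4. The cause of these reversals was not tested.

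Of 139 alternatives for 8 class levels, 4 moved beyond 1 SD: Celsr1 in astrocytes to 54.0 CPM and Celsr2 in astrocytes to 158 CPM with a mitochondrial limit of 25%, and with a limit of 5% Celsr2 to 94.9 CPM in astrocytes and 169 CPM in excitatory neurons. Some classes lost the mice needed for contrasts with CORT/Sal under stricter barcode filters, and those fits gave no value. Counts of all genes past the threshold ranged from 0 to 22 over the alternatives, against 0 to 6. Low counts of Celsr1 and Celsr3 outside their main classes limit what could be detected.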

Other observations

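Among the classes with at least 6 libraries, none held more than a few UMIs of both Celsr1 and Celsr3. Endothelial cells, microglia, oligodendrocytes and mural cells held 0 or 1 UMI of Celsr1 and 1 to 4 of Celsr3. Astrocytes held 88 UMIs of Celsr1 and 1 of Celsr3, inhibitory neurons held none of Celsr1 and 73 of Celsr3, and Celsr2 was present in both.

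In endothelial cells the ketamine effect on Fzd3 with corticosterone minus that without it was a log2 difference of 3.74 ± 1.2 SE (edgeR adjusted p = 0.485), which did not pass the threshold.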
